A study of Homo sapiens with 6 samples.

Results

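The 10 genes described here are the p160 coactivators NCOA1, NCOA2 and NCOA3, the corepressor NCOR1, the retinoid X receptors RXRA and RXRB, the retinoic acid receptors RARA and RARG, and the fatty acid receptors PPARA and PPARD. Their probes were taken by gene symbol from the platform annotation of the value table, whatever their values. The list of genes itself was chosen with earlier results of these data known. Of the 10 genes 8 had a probe named by symbol, with 16 probes in all, among 18852 genes named on the array. NCOA3 and NCOR1 had no probe under their symbols and were not analysed here. RNA came from ES-2, a human cell line started from an ovarian clear cell carcinoma. One group of 3 arrays came from cells given a synthetic double-stranded mimic of hsa-mir-22 at 65 nM with a lipid transfection reagent. The other group of 3 arrays came from cells given a negative control mimic built on nematode microRNAs, at a dose that was not given in the sources used here. Both groups were harvested after 48 hours, and all 6 samples came from this 1 line. The labels call the arrays of a group biological replicates without naming separate cultures or days, so p-values measure only the spread between these samples, which may be technical. Each value is a total over the culture, so fewer expressing cells and less RNA per cell cannot be told apart.

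Nuclear receptors are transcription factors that a small lipid-soluble ligand switches on. Retinoid X receptors are the shared partners of the family and pair with retinoic acid receptors, fatty acid receptors (PPARs) and the oxysterol receptors known as LXRs. Without ligand the retinoic acid receptors hold corepressors of the NCOR family, and ligand exchanges these for p160 coactivators, which bring in histone acetyltransferases such as CREBBP. MicroRNAs lower target mRNAs mainly by pairing of their seed with the transcript, and PPARA was reported elsewhere as a mir-22 target in cartilage cells. The comparison asks how the transcripts of this receptor system stood after cells were given a mir-22 mimic.

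The agent of the experiment is shown first, because its seed sets which transcripts it can pair with. Both mature arms of MIR22 are printed 5′ to 3′ from RefSeq (GRCh38.p14, chromosome 17, minus strand), with the seed, bases 2 to 8, in capitals. The labels do not say which arm the mimic copies.
hsa-miR-22-3p: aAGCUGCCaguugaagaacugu
hsa-miR-22-5p: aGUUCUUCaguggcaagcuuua
The first lies at chr17:1713914-1713935 and the second at chr17:1713952-1713973. The seeds differ, and neither was shared with any other of the 2370 mature human microRNA names in the RefSeq table. Transcript sequences were not used here, so sites for these seeds in the members were not looked for. The level of mir-22 itself was not measured by these arrays.

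The arrays detected 35.8% to 39.4% of their 48803 probes, fewest on control mimic replicate 3 and most on mir-22 mimic replicate 1. Control mimic replicate 3 stood apart, with correlations of 0.980 and 0.981 to the other control arrays over the 18732 probes kept for testing. The mimic arrays correlated at 0.995 to 0.998 with one another, and control mimic replicates 1 and 2 at 0.997. Among epithelial markers KRT8 and KRT18 were detected on every array, while KRT19, EPCAM and CDH1 were detected on none. The clear cell carcinoma markers PAX8 and NAPSA were detected on none either. The leukocyte markers PTPRC and CD3E were at background on all arrays. Of 2 probes of CD14, 1 was detected on all 6 arrays. Among endothelial markers VWF was at background, while CDH5, with raw intensities from 662.5 to 891.4, and PECAM1 were detected on every array. CDH5 was at a log2 fold change of -0.38 with an adjusted p of 0.0965 (limma) and was not called, and its part in the results was not tested.

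NCOA1 and RXRB were lower with the mir-22 mimic, and no member was called higher. The coactivator gene NCOA1 stood at 58.7% of its control level and the retinoid X receptor gene RXRB was 1.33-fold lower. RARA, at a negative log2 fold change, and RXRA, at a positive one, both narrowly missed the threshold. NCOA2, PPARA and PPARD did not pass. A member was called when the adjusted p of its brightest kept probe was under 0.05 in limma, a linear model with variance shared across all kept probes. Of the 7 members tested, 2 were called lower and 0 higher, with 4 lower and 1 higher at an unadjusted p under 0.05. Over all 11133 genes tested, 1585 were lower and 1265 higher at that unadjusted threshold. At the adjusted threshold 461 (4.14%) were called lower and 386 (3.47%) higher. With median scaling in place of quantile normalisation these counts were 120 lower and 322 higher. Of all kept probes, 6.46% were called in either direction.

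**Figure D1:**
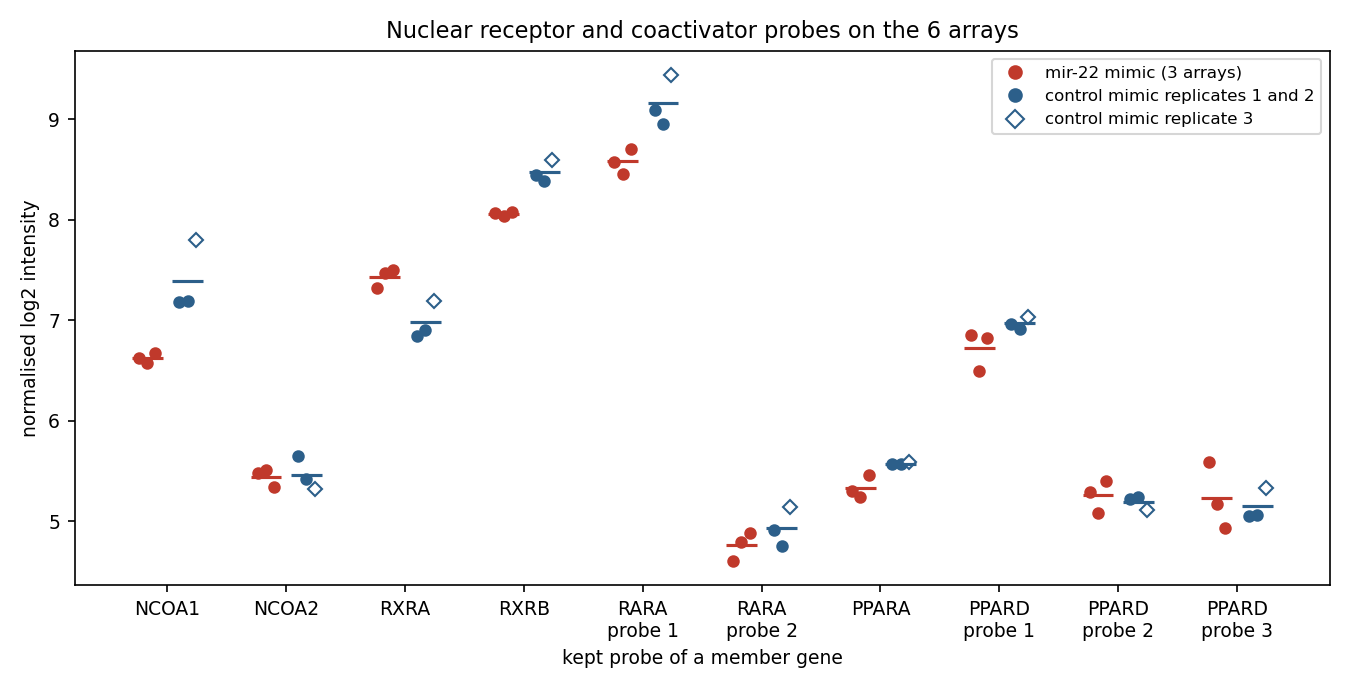
Normalised log2 intensity (y axis) of the 10 kept member probes (x axis) on each array, with red points for the mir-22 mimic, blue points for the control mimic, an open diamond for control mimic replicate 3, and lines at group means. NCOA1, RXRB, RARA probe 1, PPARA and PPARD probe 1 lie lower on every mimic array than on any control array, and RXRA lies higher. In raw intensity the groups of PPARA and PPARD probe 1 overlapped.

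The coactivators bind ligand-loaded receptors and carry the signal to chromatin. On the probe ILMN_1669033 of NCOA1 the normalised log2 intensity was 6.62, 6.58 and 6.67 on mimic replicates 1, 2 and 3. On control mimic replicates 1, 2 and 3 it was 7.18, 7.19 and 7.80. The groups did not overlap, and control mimic replicate 3 was the highest array by 0.61 over the mean of the other controls. This was a log2 fold change of -0.77 ± 0.17 (moderated SE, n = 3 per group), a 1.70-fold lower level with an adjusted p of 0.0368 in limma. In raw intensity, before any normalisation, the mimic arrays read 140.7, 133.4 and 115.7 and the control arrays 168.0, 171.4 and 212.8, so that the groups were separate there as well. Each of these readings averaged 26 to 48 beads, with a standard error over beads of 2.62% to 4.31%.

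The call of NCOA1 depended on having all mimic arrays. Leaving out mimic replicate 1, 2 or 3 gave log2 fold changes of -0.77, -0.745 and -0.79 with adjusted p-values of 0.141, 0.1495 and 0.115. Dropping control mimic replicate 2 gave an adjusted p of 0.0611, and dropping replicate 1 gave 0.0499. Without control mimic replicate 3, the array that stood apart, the change was smaller at -0.56 and the adjusted p was 0.00349. The fold change kept its sign in all 14 alternatives, with 8 of them calling it and adjusted p-values from 0.000774 to 0.1495. Median scaling (-0.63, adjusted p = 0.0564) and testing without a detection filter (0.0991) also ended the call. Since the groups did not overlap, leaving out 1 array could not turn the sign.

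NCOA1 had 2 further probes, and neither passed the detection filter of detection p under 0.01 on at least 3 arrays. One of them was above background on 2 of 3 control arrays and on no mimic array, with log2 intensities of 4.49, 4.47 and 4.28 under the mimic and 4.80, 4.74 and 4.43 under the control. These groups overlapped, since control mimic replicate 3 read below mimic replicates 1 and 2. The last probe, annotated to another transcript record, was at background on all 6 arrays.

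NCOA2, the coactivator most like NCOA1 in function, showed no detectable difference. Its log2 intensity was 5.48, 5.51 and 5.34 on the mimic arrays and 5.65, 5.43 and 5.32 on the control arrays, and the groups overlapped throughout. The log2 fold change was -0.02 ± 0.12, with a 95% interval from -0.29 to 0.25. It was called in none of 14 alternatives, whose values ran from -0.09 to 0.07. With median scaling it was at 0.065.

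The retinoid X receptors are the partners through which most of the other members act on DNA. The probe ILMN_1774074 of RXRB read 8.06, 8.04 and 8.08 on the mimic arrays. On the control arrays it read 8.44, 8.39 and 8.59. All mimic arrays lay below all control arrays, and the mimic arrays differed little among themselves (SD 0.02). RXRB had a log2 fold change of -0.41 ± 0.10, with an adjusted p of 0.0453 in limma. Raw intensities were also separate, at 262.5 to 336.1 under the mimic and 351.8 to 368.1 under the control. The standard error over beads was 5.19% to 8.84% for this probe, above the 2.62% to 4.31% of NCOA1.

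The call of RXRB was close to the threshold. Dropping mimic replicate 1, 2 or 3 or control mimic replicate 1 or 2 ended it, with adjusted p-values of 0.0887 to 0.188. Without control mimic replicate 3 the log2 fold change was -0.355 and the adjusted p 0.0228. With median scaling it was -0.28 and the adjusted p 0.247.

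RXRA read 7.32, 7.47 and 7.50 on the mimic arrays and 6.84, 6.90 and 7.19 on the control arrays (probe ILMN_1687315). Here every mimic array lay above every control array, the reverse of RXRB. The log2 fold change was 0.45 ± 0.12, or 1.37-fold, with an adjusted p of 0.0659 in limma. In the fit blocked on replicate number the adjusted p was 0.04245. Raw intensities were 185.3 to 225.0 under the mimic and 139.4 to 149.0 under the control. Without control mimic replicate 3 the log2 fold change was 0.56 (adjusted p = 0.00525), and with any other array left out it was not called. Median scaling called it at 0.58 (adjusted p = 0.0356). The fold change lay between 0.38 and 0.58 over 14 alternatives, of which 4 called it.

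The log2 fold change of RXRA exceeded that of RXRB by 0.87. The pair was set side by side after its values were seen, so this difference is a description with no test.

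**Figure D2:**
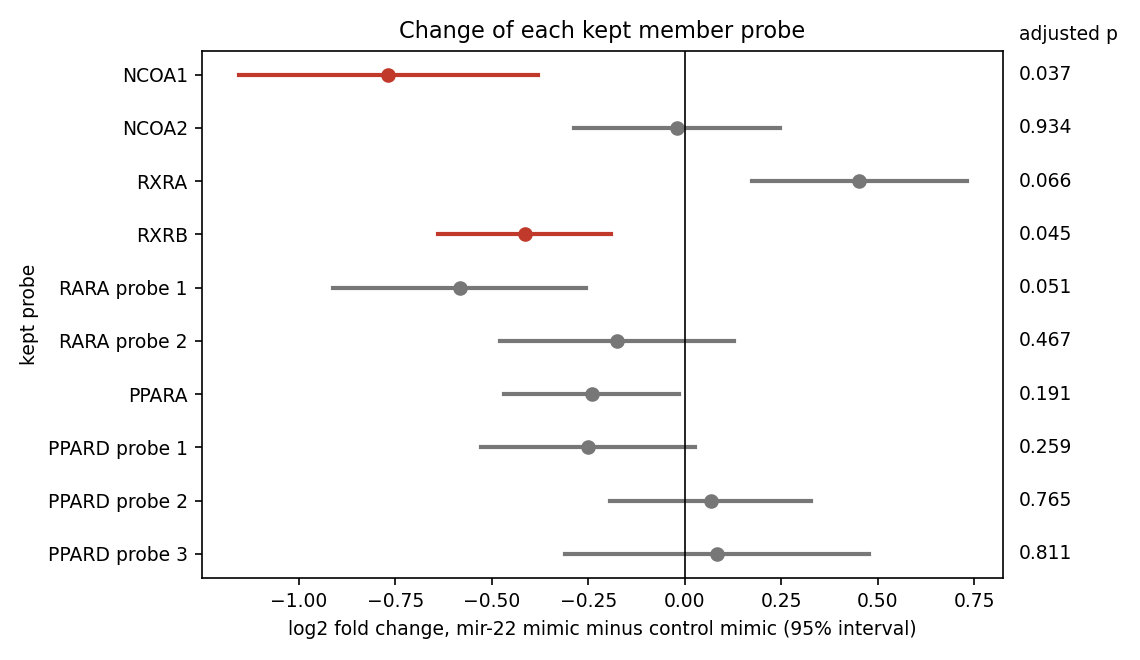
Log2 fold change of each kept member probe (x axis, mir-22 mimic minus control mimic) with limma's 95% interval and adjusted p at the right, red where called. NCOA1 and RXRB are called lower. RARA probe 1, RXRA and PPARA are not called but have intervals that do not reach 0. The intervals of NCOA2, the weaker RARA probe and every PPARD probe span 0.

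The retinoic acid receptors are the DNA-binding partners of the RXRs for retinoic acid. The brightest RARA probe, ILMN_1659206, read 8.58, 8.45 and 8.71 on the mimic arrays and 9.09, 8.95 and 9.44 on the control arrays. The groups did not overlap, and control mimic replicate 3 was again the highest. RARA stood at 66.8% of its control level, a log2 fold change of -0.58 ± 0.14, with an adjusted p of 0.0511 in limma that missed the threshold. Blocking on replicate number gave an adjusted p of 0.02245. Without control mimic replicate 3 the change was -0.445 with an adjusted p of 0.0214, and 7 of 14 alternatives called it, over a range from 0.00442 to 0.206.

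The other kept RARA probe did not show a change of that size. It read 4.61, 4.79 and 4.89 under the mimic and 4.91, 4.75 and 5.15 under the control, with overlapping groups. Its log2 fold change was -0.18 ± 0.13 with a 95% interval from -0.48 to 0.13, and the probe was above background on 2 of 3 mimic arrays. The last RARA probe was at background on all 6 arrays. RARG, a second receptor for retinoic acid, had 1 probe, which was above background on 1 of 3 mimic arrays and on no control array. It read 4.45 to 4.78 under the mimic and 4.42 to 4.66 under the control and was not tested.

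PPARA and PPARD sense fatty acids and drive genes of their oxidation. PPARA read 5.30, 5.24 and 5.46 on the mimic arrays and 5.57, 5.57 and 5.59 on the control arrays. The mimic arrays all lay below the controls after normalisation, whereas raw intensities overlapped, at 65.4 to 70.3 against 67.6 to 72.1. The log2 fold change was -0.24 ± 0.10 (95% interval -0.47 to -0.01), with an adjusted p of 0.191 in limma, and the other PPARA probes were at background on all arrays. Of 14 alternatives 1, the fit with array weights, called it lower (-0.27, adjusted p = 0.0282).

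PPARD had 3 kept probes, and they disagreed in sign. The brightest read 6.85, 6.49 and 6.82 under the mimic and 6.96, 6.91 and 7.04 under the control. Its raw intensities overlapped, at 125.3 to 160.8 against 135.7 to 149.1. The log2 fold change of this probe was -0.25 ± 0.12 with a 95% interval from -0.53 to 0.03. The other probes were at 0.07 ± 0.11 and 0.08 ± 0.17, with overlapping groups. None of the 3 was called in any of 14 alternatives. One of these weaker probes was at -0.03 with array weights and the other at -0.095 without mimic replicate 1.

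Of the 7 members tested NCOA1 and RXRB passed, and the counts that follow include the others. Among the 7 brightest kept probes, each detected on all 6 arrays, 6 had negative log2 fold changes, as had 5902 of all 11133 genes tested. NCOA2, at -0.02, is 1 of the 6. The median was -0.25, beside -0.02 over all genes tested. Every mimic array lay below every control array in 5 of the 7, where 19.5% of all genes did so, and above in 1 of the 7, against 14.8% of all genes. For PPARA and PPARD, which are among the 5, raw intensities overlapped. Median scaling moved the median of all genes by 0.115 to 0.098, and the median of the members was then -0.16. The difference between the members and all genes was -0.233 as reported and -0.258 with median scaling. These counts describe a short list that was chosen with earlier results known, and they carry no test.

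**Figure D3:**
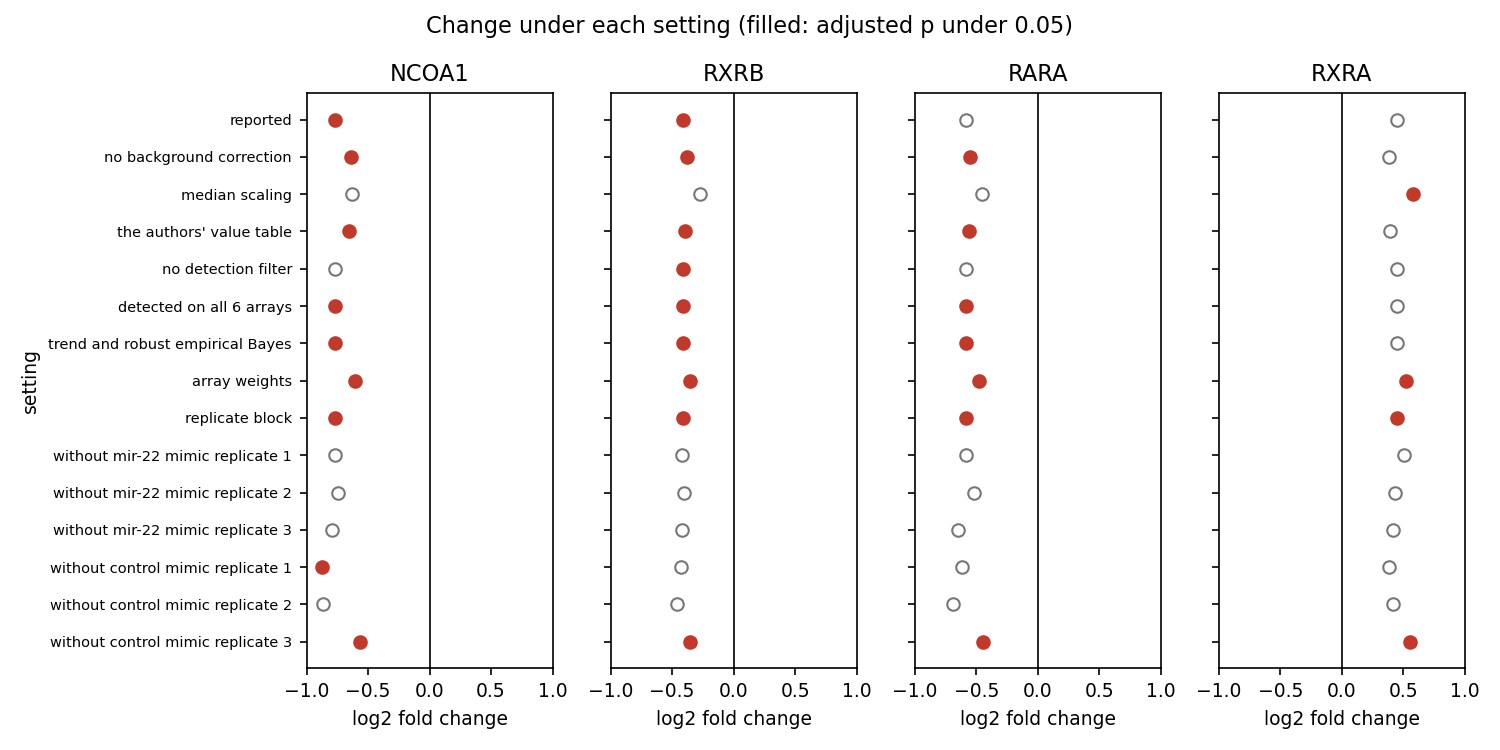
Log2 fold change (x axis) of the brightest probe of NCOA1, RXRB, RARA and RXRA under the reported setting and each alternative (y axis), filled where the adjusted p is under 0.05. The sign holds under each setting for these 4 genes. The calls of NCOA1 and RXRB are lost in most fits that leave out 1 array. RARA and RXRA are not called as reported and, among those fits, are called only without control mimic replicate 3.

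Among the rest of the receptor family RARB was the gene called. Of 42 further receptors in the human family 34 had a named probe and 17 passed the detection filter. Of these 1 was called higher and 0 lower, beside 3.47% and 4.14% of all genes tested. The median log2 fold change was -0.11. At an unadjusted p under 0.05, 5 were lower and 3 higher, beside 1585 and 1265 of all 11133 genes tested. RARB, the retinoic acid receptor whose own gene retinoic acid induces, read 7.04, 6.90 and 6.99 under the mimic and 6.60, 6.56 and 6.62 under the control. The groups did not overlap, and the log2 fold change was 0.39 ± 0.09 with an adjusted p of 0.0484 in limma. Blocking on replicate number gave 0.0519 and ended the call. Of its other kept probes 1 was at 0.37 and the other at 0.11, neither called. The orphan receptor NR2F1 was at -0.35 (adjusted p = 0.0984), the circadian regulator RORA at 0.45 (0.0986) and NR2C1 at -0.32 (0.103), all without a call. The weaker probes of RORA disagreed with one another, with 2 called higher at 0.85 and 0.52 and 1 at -0.10. The estrogen receptor genes ESR1 and ESR2 and the progesterone receptor gene PGR were not kept by the detection filter.

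Cofactors beyond the members gave 1 call. Of 20 further coactivators 18 were tested, with a median of -0.09. At an unadjusted p under 0.05, 4 were lower and 2 higher, beside 1585 and 1265 of all 11133 genes tested. No coactivator was called higher. CREBBP was called lower, as were 4.14% of all genes tested. This gene encodes the CBP acetyltransferase that p160 coactivators recruit, and its brightest probe read 8.57, 8.45 and 8.51 under the mimic and 8.92, 8.82 and 9.06 under the control. Its log2 fold change was -0.43 ± 0.10 with an adjusted p of 0.0484 in limma, while its other probe was at -0.14 and not called. EP300, the gene of the closely related acetyltransferase p300, was at -0.11. PNRC2 (0.30), NCOA7 (-0.29) and PPARGC1A (-0.32) had the next lowest p-values and were not called.

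No gene of the corepressor list was called in limma among 8 tested, with a median of -0.10. At an unadjusted p under 0.05, 3 were lower and 1 higher, beside 1585 and 1265 of all 11133 genes tested. LCOR, a ligand-dependent corepressor, was at 0.46 (adjusted p = 0.0540, or 0.0341 when blocked on replicate number). GPS2, a subunit of the NCOR complex, was at -0.42 (adjusted p = 0.0540), and the scaffold gene SIN3A was at -0.37 (0.0861). Without control mimic replicate 3 LCOR (0.39) and GPS2 (-0.35) were both called, with adjusted p-values of 0.0338 and 0.0289. Without background correction, on the authors' value table and over probes detected on all 6 arrays the list held 1 gene called lower and 1 higher. HDAC3, the deacetylase of that complex, was at -0.06.

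**Figure D4:**
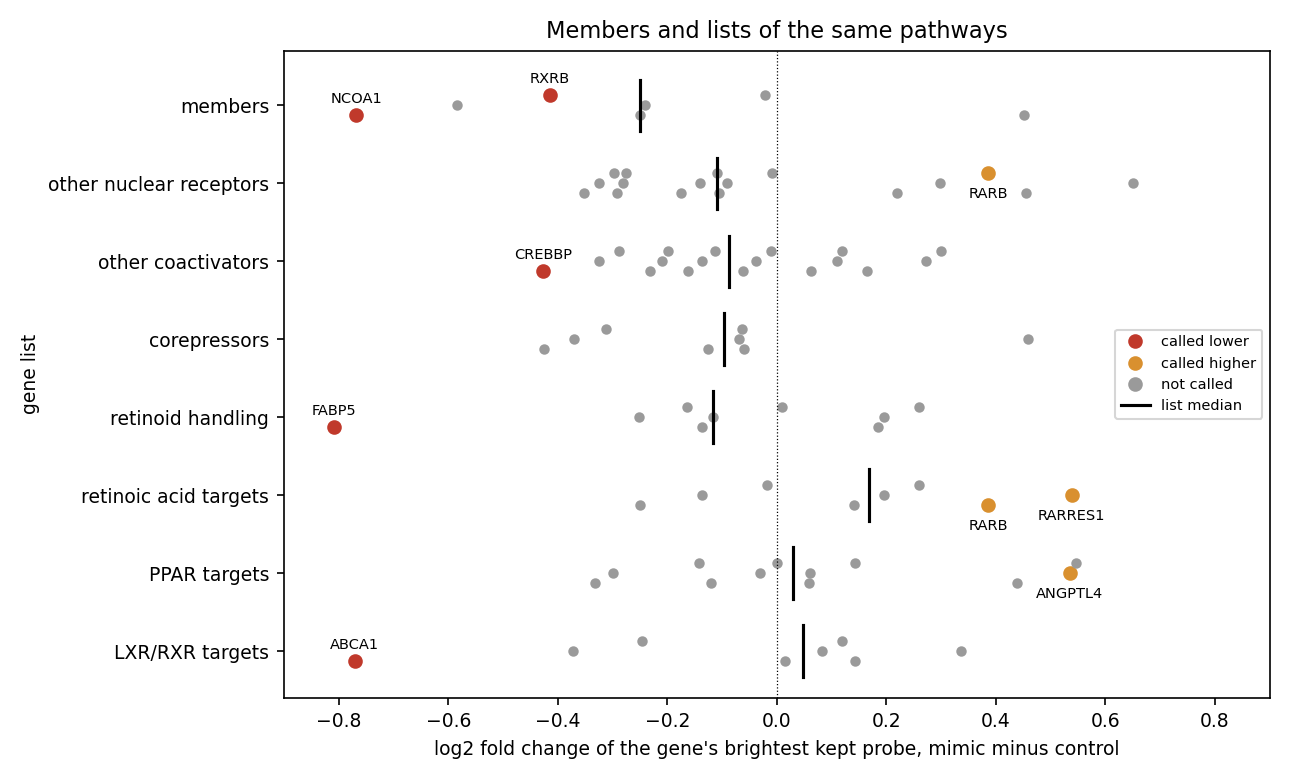
Log2 fold change (x axis, mimic minus control) of the brightest kept probe of each gene in the member list and in 7 lists of the same pathways (y axis), coloured where called, with a black bar at each list's median. No list holds more than 2 called genes, and the corepressor list holds 0. The median of the members, over 7 genes, is the lowest of the 8, at -0.25. Members and lists were chosen with earlier results of these data known.

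Genes that carry or convert retinoids held 1 call among 9 tested, with a median of -0.12. That call was lower, as were 4.14% of all genes tested. FABP5, a lipid carrier reported to deliver ligand to PPARD, read 10.27, 10.25 and 10.31 under the mimic and 10.98, 10.92 and 11.36 under the control. Its log2 fold change was -0.81 ± 0.13 (adjusted p = 0.0133, limma), and without control mimic replicate 3 it was -0.67 (0.00156). Its other kept probe was at -0.19 ± 0.31 and not called, and FABP5 has near-identical processed copies in the genome, so the transcript behind a probe is uncertain. The retinaldehyde dehydrogenase genes ALDH1A1 (-0.25) and ALDH1A3 (0.18) and the retinoic acid carrier CRABP2 (0.26) were not called.

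The retinoic acid targets RARB and RARRES1 were higher, making 2 of 8 tested genes called higher with 0 lower and a median of 0.17. Among all 11133 genes tested, 3.47% were called higher and 4.14% lower. Blocking on replicate number left 1 of the 2, RARRES1, and the count was also 1 with median scaling, with trended and robust variances, and when the kept probes of each gene were averaged. RARB is counted above as a receptor, and RARRES1 was first named for its response to a synthetic retinoid. RARRES1 read 6.12, 6.11 and 6.10 under the mimic and 5.42, 5.69 and 5.61 under the control, without overlap. Its log2 fold change was 0.54 ± 0.10 (adjusted p = 0.0241, limma), and its other kept probe was also called, at 0.72 ± 0.09 (0.00660). TGM2 (-0.25), CRABP2 (0.26) and CYP26A1 (0.20), the last encoding an enzyme that degrades retinoic acid, were not called. CYP26A1 was above background on 1 of 3 control arrays.

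Of the PPAR targets ANGPTL4 was higher, 1 of 12 tested genes, with 0 lower and a median of 0.03. Over all genes tested the shares were 3.47% higher and 4.14% lower. ANGPTL4, a secreted inhibitor of lipoprotein lipase, read 5.51, 5.29 and 5.07 under the mimic and 4.69, 4.86 and 4.71 under the control, where it was above background on 2 of 3 arrays. Its log2 fold change was 0.53 ± 0.13 with an adjusted p of 0.0498 in limma. The call was lost without background correction (0.30, adjusted p = 0.0798), on the authors' value table (0.34, 0.0737) and without a detection filter (0.0944), and 4 of 13 alternatives kept it. ACADM, a dehydrogenase of fatty acid oxidation, was at 0.55 with an adjusted p of 0.0564, while its weaker probe was called higher (0.59, adjusted p = 0.0364). The carnitine carrier gene SLC25A20 was at 0.44 with an adjusted p of 0.0589. Both passed when blocked on replicate number (0.0356 and 0.0433), which raised the list's count from 1 to 3. HADHA, which acts in the same oxidation pathway, was at -0.33 (adjusted p = 0.105) and was not called.

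LXR and RXR targets held 1 call among 8 tested, with a median of 0.05. It was a lower call, beside 4.14% of all genes tested. ABCA1, the exporter of cellular cholesterol, read 7.63, 7.67 and 7.57 under the mimic and 8.46, 8.50 and 8.22 under the control. The groups did not overlap, and control mimic replicate 3 was here the lowest control array. The log2 fold change was -0.77 ± 0.11 with an adjusted p of 0.00864 in limma, and without control mimic replicate 3 it was -0.86 (0.000630). ABCG1, a cholesterol exporter of the same family, was at 0.08, and SREBF1, a regulator of fatty acid synthesis, was at 0.01. LPCAT3 (-0.37), SMPDL3A (0.34) and MYLIP (-0.25) were not called.

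Calls of the 6 called list genes RARB, CREBBP, FABP5, RARRES1, ANGPTL4 and ABCA1 did not survive leaving out any 1 mimic array. Those of RARB, CREBBP, RARRES1 and ANGPTL4 were also lost without control mimic replicate 1 or 2. All 6 were called without control mimic replicate 3. That fit also called RORA (0.60), PPARGC1A (-0.44), MYLIP (-0.42), ACADM (0.41), SLC25A20 (0.49) and the glucocorticoid receptor gene NR3C1 (-0.33), which were not called with all arrays. Median scaling ended the calls of ABCA1 (-0.63, adjusted p = 0.1035), ANGPTL4 (0.59, 0.1039), CREBBP (-0.28, 0.268) and RARB (0.52, 0.0785). RARB was also lost with trended and robust variances (adjusted p = 0.0636). With the mean over a gene's kept probes, the lists that hold CREBBP and FABP5 had 0 genes called lower.

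The genes whose levels ran closest to NCOA1 over the 6 arrays were found by Euclidean distance between mean-centred log2 values. They were the vessel growth factor gene ANGPT2 (distance 0.12, Pearson r 0.994), TTC38 (0.145), DLC1 (0.154), AMDHD2 (0.166) and the RNA-binding protein gene RAVER1 (0.166). All 5 were called lower, with log2 fold changes from -0.79 to -0.72. Closest to RXRB were PRR14 (0.051), the ceramide synthase gene CERS5 (0.052), the lipid droplet gene LDAF1 (0.059), CPVL (0.063) and the glucosylceramidase gene GBA2 (0.063). Of these CERS5 and LDAF1 were called lower and the others, at -0.39 to -0.405, were not. These genes were chosen for likeness to NCOA1 or RXRB on the same arrays, so their fold changes and calls are no separate result. The 6 points of each correlation share their arrays, and the 2 groups set most of its size.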

How the data were processed

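Total RNA of 6 ES-2 samples was hybridised to 1-colour Illumina bead arrays. Per the submitters' processing notes the authors used BeadStudio, with no version stated. Deposited per array were, for each probe, a mean bead intensity, the spread and count of its beads, and a detection score from 0 to 1. A detection p was taken as 1 minus that deposited score. The deposited intensities were not normalised between arrays, and their lowest values were 26.8 to 31.1. A deposited value table of normalised intensity, with a median of 48.6 on mir-22 mimic replicate 1 and no method stated in the sources used here, names the probes. Its 48803 rows were joined 1 to 1 to the array files by the rank of each value on the 6 arrays. The platform annotation gave 1 symbol to 28098 probes and several to 13, and left 20692 unnamed. No gene coordinates are given because the annotation names no build.

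In limma 3.58.1 (R 4.3.3) the neqc procedure was applied, with a normexp background from the detection p, an offset of 16, quantile normalisation and log2. The offset understates fold changes of dim probes. Probes with detection p under 0.01 on at least 3 arrays were kept (18732 probes, 11133 genes, median SE of a log2 fold change 0.122). The groups were compared per probe (lmFit and eBayes, two-sided, Benjamini-Hochberg over all kept probes, threshold 0.05), mir-22 mimic minus control mimic. Each gene was represented by the brightest of its kept probes. The code was tested on simulated data.

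Same-numbered arrays of the groups deviated together from their group means (correlations 0.334, 0.135 and 0.434 for numbers 1, 2 and 3). Of the unlike pairs 4 were negative, while mimic 1 with control 2 (0.315) and mimic 2 with control 1 (0.181) were also above 0. Both of these exceeded the 0.135 of number 2, so the values do not establish the numbers as pairs. The labels do not say that a number marks a shared day or culture, and the reported fit is unpaired. A fit with the replicate number as a block is given as an alternative where it changes a call. Alternatives changed the background correction, normalisation, values, filter, variance model, array weights, block, probe summary or arrays used. Named were all member probes, every called gene of each list with up to 3 others of lowest p, some further genes chosen after their values were seen (ESR1, ESR2, PGR, NR3C1, EP300, HDAC3, ABCG1 and SREBF1), and the 5 genes nearest to NCOA1 and RXRB. Members and lists were chosen with earlier results of these data known.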

Additional observations from a re-analysis of the deposited data

How the results depend on the processing

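With all 6 arrays 1210 probes were called, with 2 members lower, 0 higher and a member median of -0.25. Of all genes 4.14% were then called lower and 3.47% higher. Median scaling gave 628 probes, 0 members lower, 1 higher and a median of -0.16, with 1.08% of all genes lower and 2.89% higher. Array weights gave 4405 probes, with 4 members lower and 1 higher, where 13.6% of all genes were lower and 12.7% higher. Without a detection filter 1 member was lower, as were 2.06% of all genes. The replicate block and the mean over a gene's probes each gave 1 member higher, RXRA, with 4.69% and 4.5% of all genes higher. Leaving out 1 array in turn gave 134 to 2689 probes, 0 to 3 members lower, 0 to 1 higher and medians of -0.314 to -0.193. Of all genes 0.35% to 7.63% were lower and 0.503% to 8.6% higher in these fits. The fewest probes were called without mimic replicate 1 (134). Dropping mimic replicate 2 gave 137, and mimic replicate 3 gave 222. For control mimic replicates 1, 2 and 3 the counts were 601, 419 and 2689. The cause of these shifts was not tested. Some of the settings also changed the number of arrays or of probes tested. With the replicate block, where 1577 probes were called, the calls of RARA, RXRA, RARB, LCOR, ACADM and SLC25A20 changed, and no other called member or list gene changed its call. No called member or called list gene reversed its sign in any alternative. The 6 member probes that were not kept, of NCOA1, RARA, RARG and PPARA, were above background on 2 arrays at most, which limits what they can show.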
